A study of Sus scrofa with 67 samples.

Results

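Endometrium and oviduct of the pig were compared at day 0 of the oestrous cycle, the day on which gilts first showed oestrous behaviour. The comparison used every library that the labels assign to either tissue on that day, 3 of endometrium and 3 of oviduct, out of 66 libraries of endometrium, ovary and oviduct with counts, taken every 3 days from day 0 to day 18. All gilts were crossbred Landrace × Yorkshire animals of 6 to 8 months that had passed at least 2 earlier cycles of normal length, and 3 gilts were planned for each day. Endometrium, the lining of the uterus, was separated from the uterine muscle before RNA was extracted, and oviduct came from the ampulla, the wide segment in which fertilisation takes place. Both were whole tissues measured in bulk, so fewer cells of a type and less messenger RNA per cell of that type cannot be told apart in any result below. Messenger RNA was selected by its poly-A tail, sequenced and counted per gene. No step that removed the muscle of the oviduct wall is named in the study's methods.

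Endometrium and oviduct arise from neighbouring stretches of the Müllerian duct, a tube whose regions are set by the HOX genes, with higher-numbered genes of a cluster used further toward the tail. The oviduct epithelium holds ciliated cells, which move the egg and fluid, and secretory cells, which release oviductal glycoprotein around fertilisation. The endometrium is a thick stroma with surface and glandular epithelium that later feeds the embryo, whereas the oviduct is a folded mucosa inside layers of smooth muscle. At oestrus both tissues are under oestrogen, before the luteal rise of progesterone.

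The 6 libraries held 9555136 to 11573086 counts and 17341 to 17718 genes with at least 1 count, so depth was alike in both tissues. Libraries are given below in the order 1, 2 and 3 of each tissue, by the numbers in the count table. Counts were scaled to CPM, a gene's counts relative to its library's total, with TMM normalisation, which sets the scale from the bulk of genes rather than from the few most abundant ones. Across genes, log2(CPM + 1) correlated at 0.967 to 0.981 between libraries of one tissue and at 0.855 to 0.887 between tissues. Tissue held 0.777 of the squared distance among the 6 libraries, with an exact permutation p = 0.1, the smallest that 3 against 3 libraries can give. Oviduct library 2 stood apart from the other 2 of its tissue in some genes, named where this matters. OVGP1, HOXA10 and HOXA11 matched the tissue labels, whereas some other listed markers, given below, went the other way. OVGP1 took 5.13% to 16.8% of the counts of the oviduct libraries and at most 0.0119% in endometrium. HOXA10 and HOXA11 were near or at 0 in oviduct but not in endometrium.

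Of 14606 genes with enough counts to test, 5801 (39.7%) differed between the tissues at an adjusted p under 0.05, 2684 (18.4%) higher in endometrium and 3117 (21.3%) higher in oviduct. The shares of 18.4% and 21.3% are the background for each count of list or family members at day 0 below. The difference between tissues is given throughout as the log2 fold change, endometrium minus oviduct, with its standard error after ±, from the quasi-likelihood test of edgeR, with p adjusted by Benjamini-Hochberg over all 14606 genes (n = 3 per tissue). With TMM, large differences lay more often on the side of the oviduct. A difference shown to exceed 2-fold was called for 1764 genes (12.1%), 515 higher in endometrium and 1249 higher in oviduct, but 839 and 904 when scaled by library size alone. A log2 fold change of at least 3, which is 8-fold, was reached by 145 genes called higher in endometrium and 390 called higher in oviduct, and one of at least 5, which is 32-fold, by 39 and 108. The median over all genes tested was 0.03. Scaling by library size alone, without TMM, moved that median to 0.35 and the share of calls higher in endometrium from 46.3% to 70.1%, and leaving the OVGP1 counts out of the library size gave 57.1%. Fitting all 66 libraries of the 3 tissues together gave 3766 calls, 1522 higher in endometrium and 2244 higher in oviduct.

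**Figure D1:**
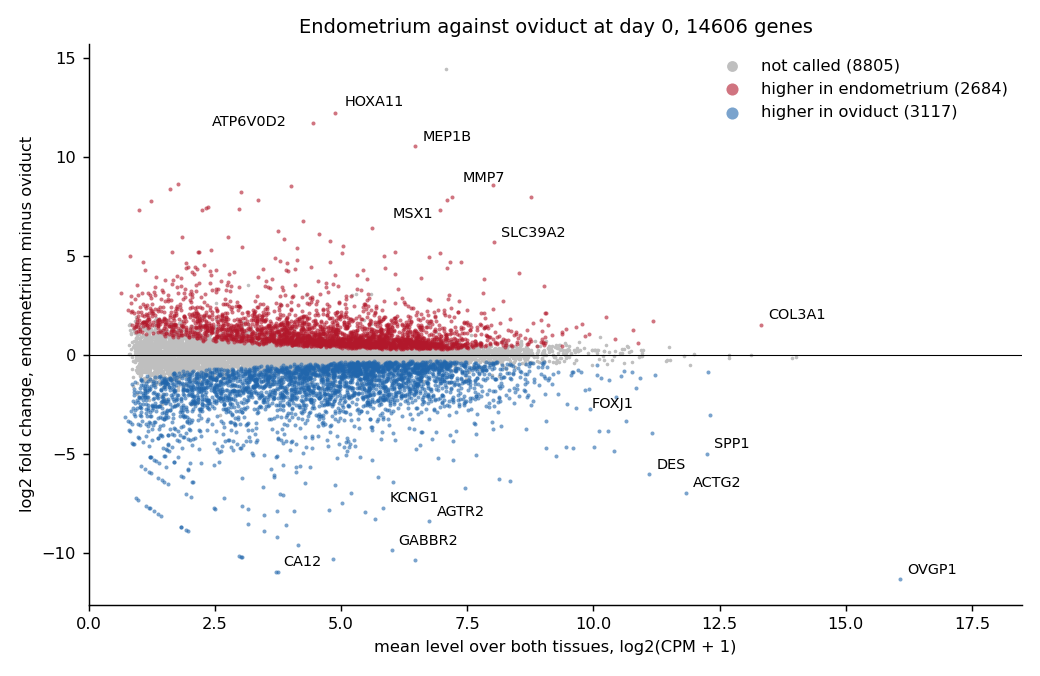
Log2 fold change, endometrium minus oviduct, against the mean level over both tissues as log2(CPM + 1) for the 14606 genes tested at day 0; each point is a gene, red where called higher in endometrium (2684), blue where called higher in oviduct (3117) and grey where not called. OVGP1 lies apart at the lower right, with a log2 fold change of -11.35, and HOXA11 is at the top with 12.21, below 1 grey point that was not called.

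OVGP1 (ENSSSCG00000006791) encodes oviductal glycoprotein 1, which the secretory cells release and which binds the coat of the egg. It was measured at 193220.0, 52731 and 169890.0 CPM in oviduct and 29.2, 23.4 and 107 CPM in endometrium. Every oviduct library was far above every endometrium library, and oviduct library 2 was the lowest of its tissue. The fold was 2606-fold between the means (log2 fold change -11.35 ± 1.05, adjusted p = 1.91e-04). Endometrium library 3 was the highest of its tissue, and without it the log2 fold change was -12.36. In counts, OVGP1 had 1687037, 545994 and 1658834 of the reads in oviduct and 312, 258 and 1209 in endometrium. Its share was 16.81% (95% Wilson interval 16.79 to 16.84), 5.13% (95% Wilson interval 5.12 to 5.14) and 14.33% (95% Wilson interval 14.31 to 14.35) of the oviduct counts, intervals that cover counting error only. Among the 5 tested markers of oviduct secretory cells, 3 were called higher in oviduct and 2 higher in endometrium, with a median of -0.89. WT1, a transcription factor of the Müllerian tract, was higher in oviduct at 209.6, 189 and 179 CPM in oviduct and 28.4, 13.4 and 18.4 CPM in endometrium (log2 fold change -3.26 ± 0.26, adjusted p = 1.20e-04). SLC34A2, a sodium-phosphate cotransporter, was higher there by less (log2 fold change -0.89 ± 0.26, adjusted p = 0.0271). MSX1 and PAX2, homeobox and paired-box transcription factors listed as secretory-cell markers, went the other way. MSX1 was at 315, 215 and 280.0 CPM in endometrium and 0.344, 1.55 and 1.54 CPM in oviduct, 237-fold apart (log2 fold change 7.84 ± 0.37, adjusted p = 2.14e-05). Its oviduct level was a few counts per library, whereas PAX2 was measured in both tissues (log2 fold change 1.28 ± 0.25, adjusted p = 0.00524). CRISP3, also listed, had 0 counts in all 6 libraries.

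Genes of motile cilia were higher in oviduct almost without exception. Of 18 tested markers of ciliated cells, 17 were called higher in oviduct and 0 higher in endometrium, with a median of -2.16 against 0.03 over all genes, where 21.3% of genes were called in that direction. FOXJ1, the transcription factor that switches on motile cilia, was at 1442, 1580.0 and 1189 CPM in oviduct and 329, 432 and 483 CPM in endometrium (log2 fold change -1.76 ± 0.20, adjusted p = 4.39e-04). Both tissues held its transcript, with no overlap between them, as for 53.8% of all genes tested. The largest differences in the list were in CFAP43 (-2.81 ± 0.27), TEKT1 (-2.69 ± 0.17), DNAI2 (-2.55 ± 0.31) and SPAG17 (-2.42 ± 0.17), which build the moving axis of the cilium, with adjusted p from 5.02e-05 to 5.69e-04. TEKT1 was at 169.9, 159.5 and 139.7 CPM in oviduct and 19.6, 24.0 and 28.9 CPM in endometrium. The member not called was CCNO, a cyclin-like gene needed to multiply centrioles, at 15.3, 99.2 and 13.6 CPM in oviduct and 13.5, 6.09 and 25.2 CPM in endometrium, where oviduct library 2 alone was high (-1.52, adjusted p = 0.212). A wider set of axoneme genes, taken by symbol after the values were seen, had 48 tested members, all 48 of them called higher in oviduct, with a median of -2.01. They ran from -3.26 ± 0.23 in CFAP206 to -0.90 ± 0.14 in CFAP20. The summed level of the 18 markers was 827 to 1298 CPM in the endometrium libraries and 3769 to 4621 CPM in the oviduct libraries, so endometrium held cilia transcripts too.

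HOX genes differed between the tissues in both directions. Symbols were paired for 28 HOX genes, of which 19 were tested. In that family, taken by symbol after the values were seen, 10 were called higher in endometrium, 3 higher in oviduct and 6 were not called, with a median of 1.25. HOXA11 (ENSSSCG00000016698) had 655, 514 and 721 counts in the endometrium libraries and 0 in every oviduct library. Against a floor of 3 counts per library its level was at least 183-fold higher in endometrium (log2 fold change 12.21 ± 0.43, adjusted p = 3.69e-05). HOXA10 was at 9.91, 5.54 and 8.41 CPM in endometrium and 0, 0 and 0.102 CPM in oviduct (log2 fold change 7.41 ± 0.63, adjusted p = 1.48e-04). No oviduct library reached 1 CPM of either gene. HOXD10 followed at 10.4, 8.63 and 13.4 CPM in endometrium and 0.229, 0.386 and 1.84 CPM in oviduct (log2 fold change 3.69 ± 0.59, adjusted p = 0.00200). The 3 HOX genes called higher in oviduct had lower numbers than these, in clusters A and C. HOXC6 was at 17.8, 17.1 and 15.2 CPM in oviduct and 0.374, 0.636 and 0.442 CPM in endometrium (log2 fold change -5.07 ± 0.27, adjusted p = 2.78e-05), HOXA7 differed by -3.68 ± 0.24 and HOXA5 by -2.27 ± 0.16. HOXA5 was well measured in both tissues, at 234, 217 and 284 CPM in oviduct and 59.5, 46.0 and 46.8 CPM in endometrium. The order was not a simple one along each cluster, however. HOXA2 (2.99 ± 0.38) was higher in endometrium, HOXA3 lay between it and HOXA5 without a call (0.48, adjusted p = 0.166), and HOXB6 (1.33 ± 0.13), HOXB7 (2.62 ± 0.20) and HOXB8 (2.28 ± 0.30) were higher in endometrium. None of HOXB2 to HOXB5 was called, with log2 fold changes from -0.32 to 0.36. HOXA9 was listed at 0 counts in all 6 libraries, and HOXC10 had at most 9.

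**Figure D2:**
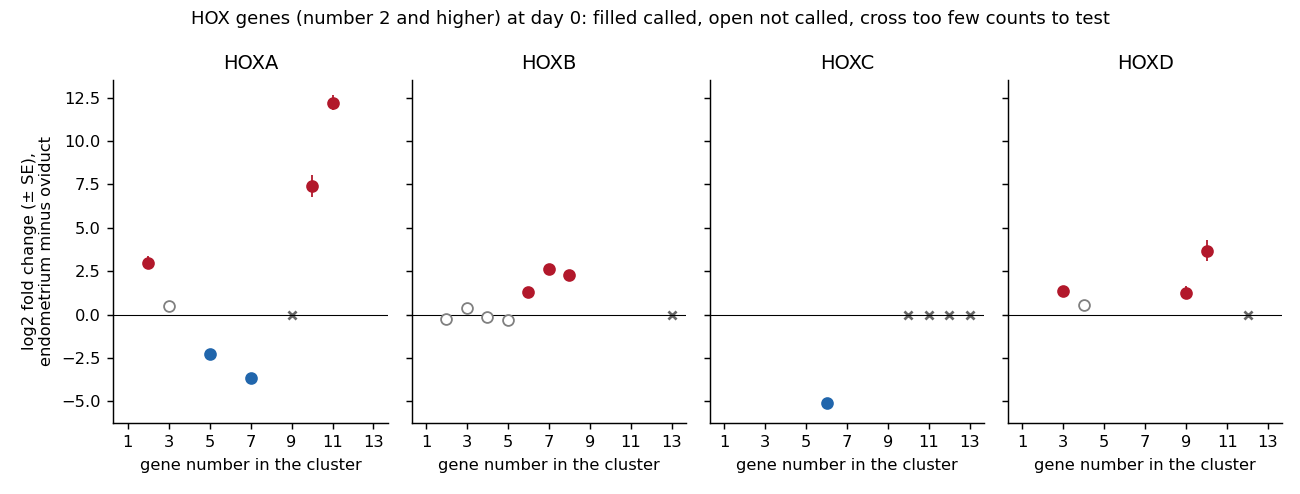
Log2 fold change of the HOX genes numbered 2 or higher at day 0, endometrium minus oviduct, with standard errors as bars, against the number of the gene within clusters A, B, C and D; red points were called higher in endometrium, blue points higher in oviduct, open points were not called, and crosses on the line at 0 mark genes with too few counts to test. The highest points are HOXA10 (7.41) and HOXA11 (12.21), and the lowest is HOXC6 (-5.07).

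Other regulators of the Müllerian duct were tested in a patterning list that largely repeats the HOX genes above. Of its 10 tested members, most of them HOX genes, 5 were called higher in endometrium and 4 higher in oviduct (median 0.70). LHX1, a homeobox gene required to form the duct, had 20, 30 and 26 counts in oviduct and 0 in every endometrium library (log2 fold change -7.76 ± 0.71, adjusted p = 6.09e-04, at least 9.59-fold higher in oviduct). GATA2, a transcription factor, was at 149.8, 136 and 174 CPM in endometrium and 32.3, 40.7 and 38.3 CPM in oviduct (log2 fold change 2.04 ± 0.15, adjusted p = 7.74e-05). TBX3 was the member not called (0.16, adjusted p = 0.331). WNT ligands, secreted signals of the same tract, leaned to the oviduct. Of 7 tested, a family taken after the values were seen, 5 were called higher in oviduct, and 0 in endometrium, led by WNT10B (-2.84 ± 0.48), WNT2B (-2.40 ± 0.14) and WNT7B (-2.18 ± 0.34). WNT2B was at 81.5, 77.9 and 66.1 CPM in oviduct and 15.6, 12.8 and 14.4 CPM in endometrium.

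Among genes with a symbol, those that followed HOXA11 in size of difference toward endometrium were of various kinds. ATP6V0D2, a subunit of the proton pump that acidifies vesicles, had 395, 499 and 468 counts in endometrium and 0 in each oviduct library, at least 131-fold higher (log2 fold change 11.73 ± 0.40, adjusted p = 3.43e-05). MMP7 (ENSSSCG00000014982), the epithelial protease matrilysin, was at 392, 269.7 and 211 CPM in endometrium and 0.344, 2.51 and 0.410 CPM in oviduct, 267-fold apart (log2 fold change 7.99 ± 0.59, adjusted p = 1.12e-04). MEP1B, the beta subunit of the protease meprin, had 5522 counts in endometrium library 2 but 135 and 118 in the others, against 0, 2 and 1 in oviduct (log2 fold change 10.56 ± 2.58, adjusted p = 0.0169). The tissues did not overlap, but the size of this difference rests mostly on 1 library, and it was not called by DESeq2, without a filter on low counts, or without any 1 of the oviduct libraries. DISP3, a membrane protein with a sterol-sensing domain, was at 14.8, 43.6 and 31.8 CPM in endometrium and 0, 0.193 and 0 CPM in oviduct (log2 fold change 8.53 ± 0.75, adjusted p = 1.66e-04). PLPP4, a phospholipid phosphatase, was at 17.5, 15.7 and 9.29 CPM in endometrium and 0, 0 and 0.102 CPM in oviduct (log2 fold change 8.24 ± 0.62, adjusted p = 8.69e-05). SLC9A4, a sodium-proton exchanger (8.64 ± 1.27), GDF7, a ligand of the BMP family (8.40 ± 0.66), and NMU, the precursor of the peptide neuromedin U (7.79 ± 0.76), had 0 counts in oviduct and 25 to 96 in the endometrium libraries. Their bounds were 15.5-, 13.1- and 8.52-fold. ERP27, a protein of the endoplasmic reticulum (7.82 ± 0.66), and C1orf141 (7.46 ± 0.77) had 1 or 2 counts in all of oviduct.

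Markers of endometrial epithelium and its secretions were mixed. Of 9 tested, 5 were called higher in endometrium, 2 higher in oviduct and 2 were not called (median 0.67). RBP4, the retinol-binding protein that glands secrete, was at 207, 605 and 141 CPM in endometrium and 8.36, 9.75 and 18.7 CPM in oviduct (log2 fold change 4.69 ± 0.66, adjusted p = 0.00162), with endometrium library 2 again the highest. FOXA2, the transcription factor of uterine glands, was at 82.2, 172 and 127 CPM in endometrium and 30.8, 58.5 and 26.7 CPM in oviduct (log2 fold change 1.71 ± 0.36, adjusted p = 0.00776). SPP1, the secreted adhesion protein osteopontin, ran against the name of the list at 11391, 8043 and 8934 CPM in oviduct and 628, 135 and 122 CPM in endometrium (log2 fold change -5.00 ± 0.72, adjusted p = 0.00145). Its lowest oviduct library was above its highest endometrium library. General epithelial genes differed little. EPCAM (0.67 ± 0.12) and CDH1 (0.67 ± 0.13) were higher in endometrium, KRT18 was slightly higher in oviduct (-0.39 ± 0.11), and KRT8 was not called (-0.26, adjusted p = 0.206).

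**Figure D3:**
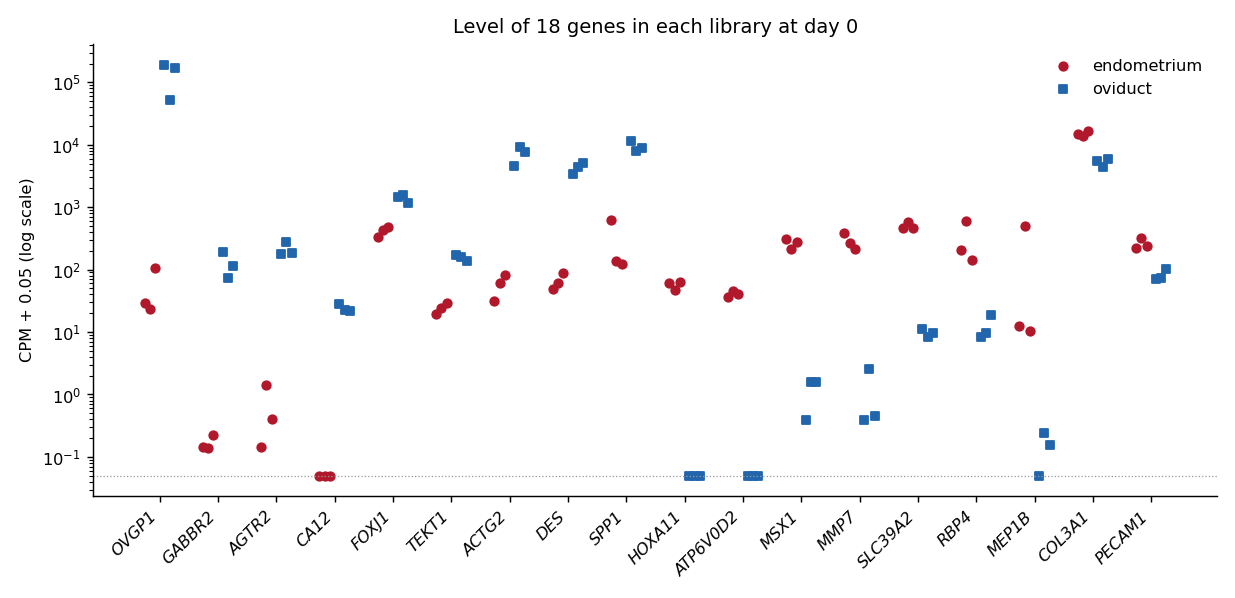
Level of 18 genes in each library at day 0 as CPM + 0.05 on a log scale, with red circles for the 3 endometrium libraries and blue squares for the 3 oviduct libraries; points on the dotted line are at 0 counts. In each of the 18 genes shown, every library of the higher tissue lies above every library of the other; HOXA11 and ATP6V0D2 are at 0 in oviduct and CA12 is at 0 in endometrium.

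Toward the oviduct, the genes with a symbol that followed OVGP1 in size of difference were also of various kinds, and some genes without a symbol differed as much. CA12, a membrane carbonic anhydrase that makes bicarbonate, had 244, 237 and 215 counts in oviduct and 0 in each endometrium library, at least 89.0-fold higher (log2 fold change -10.97 ± 0.45, adjusted p = 5.82e-05). CA14, a relative of CA12, was at 13.9, 13.4 and 19.8 CPM in oviduct and 0.0935, 0 and 0 CPM in endometrium (log2 fold change -8.53 ± 0.54, adjusted p = 5.24e-05). Of 7 carbonic anhydrases tested, 5 were called higher in oviduct and 0 higher in endometrium, with CA3 at -6.66 ± 0.60 and CA8 at -3.26 ± 0.42, whereas CA2, the common form, was not called (0.44, adjusted p = 0.577). The family was taken after the values were seen. GABBR2, a subunit of the GABA-B receptor, was at 191, 73.6 and 113 CPM in oviduct and 0.0935, 0.0909 and 0.177 CPM in endometrium, 1044-fold apart (log2 fold change -9.88 ± 0.57, adjusted p = 3.55e-05). AGTR2, the type 2 receptor of angiotensin II, was at 175, 275 and 186 CPM in oviduct and 0.0935, 1.36 and 0.354 CPM in endometrium, 351-fold apart (log2 fold change -8.42 ± 0.52, adjusted p = 5.55e-05). ATP2B2, a calcium pump of the cell membrane, was at 113, 77.6 and 68.9 CPM in oviduct and 0, 0.636 and 0.354 CPM in endometrium (log2 fold change -7.97 ± 0.49, adjusted p = 4.74e-05). All of these receptor and pump genes had at most 15 counts in an endometrium library. NPC1L1, a sterol transporter, had 45, 313 and 70 counts in oviduct and 0 in endometrium (log2 fold change -10.20 ± 1.63, adjusted p = 0.00584, at least 52.0-fold), so oviduct library 2 set most of its mean. SLC17A1, an anion transporter, was at 26.6, 31.6 and 41.5 CPM in oviduct and 0, 0.0909 and 0 CPM in endometrium (log2 fold change -9.61 ± 0.49, adjusted p = 2.42e-05). SLC38A11, of a family of amino acid transporters (-8.90 ± 0.52), TNNC1, the troponin C of slow and cardiac muscle (-9.18 ± 0.68), KRT73, a keratin (-8.72 ± 0.98), and NPPB, the precursor of brain natriuretic peptide (-8.03 ± 1.10), had at most 1 count in all of endometrium.

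Smooth muscle genes were the list furthest from 0. All 13 tested markers were called higher in oviduct, with a median of -3.96. ACTG2, the gamma actin of visceral muscle, was at 4617, 9276 and 7798 CPM in oviduct and 31.3, 61.4 and 81.0 CPM in endometrium (log2 fold change -6.96 ± 0.49, adjusted p = 7.61e-05). DES, the muscle filament desmin, was at 3415, 4488 and 5069 CPM in oviduct and 49.0, 60.7 and 88.2 CPM in endometrium (log2 fold change -6.03 ± 0.32, adjusted p = 2.78e-05). MYH11, the smooth muscle myosin, was at 1182, 1436 and 1456 CPM in oviduct and 37.6, 53.5 and 70.4 CPM in endometrium (log2 fold change -4.66 ± 0.27, adjusted p = 3.54e-05). Endometrium levels of the list were low but not 0: the summed level was 1159 to 1721 CPM in the endometrium libraries and 20996 to 33321 CPM in the oviduct libraries, and no member was at 0 in an endometrium library. TPM2, a tropomyosin, differed by -4.85 ± 0.26 and CNN1, a calponin, by -4.73 ± 0.32. ACTC1, the cardiac actin, was at 7.67, 79.7 and 13.1 CPM in oviduct and 0.0935, 1.54 and 0.354 CPM in endometrium (log2 fold change -5.63 ± 1.23, adjusted p = 0.0108), with oviduct library 2 far above the other two. The actins have near-identical coding sequences, so reads could have been counted for the wrong member. Endometrium was dissected away from muscle and the oviduct was not stated to be, and how much of any oviduct-higher gene lies in muscle was not tested. Genes named for potassium channels, which set the resting voltage of muscle and epithelium, leaned the same way. Of 33 tested, a family taken by symbol after the values were seen, 21 were called higher in oviduct and 5 higher in endometrium (median -2.02). The family also holds accessory and interacting proteins of channels. KCNMB1 (-6.44 ± 0.35) and KCNMA1 (-3.57 ± 0.17), subunits of the calcium-activated channel of smooth muscle, were among the 21, and KCNG1, a modifier of voltage-gated channels, was furthest at 80.1, 112 and 141 CPM in oviduct and 0.467, 0.454 and 0.619 CPM in endometrium (log2 fold change -7.72 ± 0.31, adjusted p = 1.85e-05). KCNK5, an acid-sensitive channel of epithelia, was the strongest exception at 43.8, 69.5 and 72.9 CPM in endometrium and 0.916, 1.83 and 1.33 CPM in oviduct (log2 fold change 5.48 ± 0.31, adjusted p = 3.48e-05). The part of muscle in these channel differences was not tested. Of 3 tested nerve markers, UCHL1 (-4.63 ± 0.53) and NCAM1 (-3.22 ± 0.25) were higher in oviduct and STMN2 (2.28 ± 0.37) in endometrium.

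Stroma, vessels and leukocytes leaned to the endometrium, with smaller differences. Of 17 stroma and matrix genes tested, 9 were called higher in endometrium, 3 higher in oviduct and 5 were not called, with a median of 0.52. COL3A1, a fibrillar collagen, was at 15078, 13590.1 and 16620.1 CPM in endometrium and 5515, 4418 and 5828 CPM in oviduct (log2 fold change 1.52 ± 0.22, adjusted p = 0.00130). DCN, the proteoglycan decorin, differed by 1.91 ± 0.32, and PDGFRA, a growth factor receptor of fibroblasts, by 1.88 ± 0.22. POSTN, the matrix protein periostin, was higher in oviduct (log2 fold change -3.58 ± 0.46, adjusted p = 8.45e-04), with no overlap between the tissues. IGF1, insulin-like growth factor 1, was also higher in oviduct, at 31.6, 33.8 and 28.4 CPM in oviduct and 7.67, 11.2 and 12.5 CPM in endometrium (log2 fold change -1.58 ± 0.20, adjusted p = 7.98e-04). Of 24 collagens tested, a family taken after the values were seen, 6 were called in each direction, beside 18.4% of all genes higher in endometrium and 21.3% higher in oviduct. The endometrium-higher calls were 2 without any 1 of the oviduct libraries, 3 without endometrium replicate 1 or 3, and 1 of 29 in the fit of all libraries. The basement membrane chains COL4A4 (-2.87 ± 0.38), COL4A5 (-2.43 ± 0.24) and COL4A6 (-2.27 ± 0.17) were higher in oviduct and the fibrillar COL1A2 (1.25 ± 0.16) in endometrium. Of 12 matrix metalloproteinases tested, also taken after the values were seen, 8 were called higher in endometrium and 0 higher in oviduct, beside 18.4% and 21.3% of all genes. The counts were 7 and 1 without oviduct replicate 1 and 4 and 1 of 16 in the fit of all libraries, and MMP12, which did not pass the filter, had 6, 3 and 6 counts in endometrium and 3, 121 and 52 in oviduct. MMP13, an interstitial collagenase, was at 6.08, 5.91 and 4.69 CPM in endometrium and 0.229, 0.290 and 0.205 CPM in oviduct (log2 fold change 4.45 ± 0.35, adjusted p = 1.09e-04), and MMP2, a gelatinase, at 1546, 951 and 1419 CPM in endometrium and 474, 335 and 499.7 CPM in oviduct (log2 fold change 1.58 ± 0.24, adjusted p = 0.00162). Of 6 tested endothelial markers, 5 were called higher in endometrium, among them TEK (1.68 ± 0.23), PECAM1 (1.67 ± 0.21) and ERG (1.64 ± 0.20), while KDR, the main VEGF receptor, was not called (-0.36, adjusted p = 0.0618). Their summed level was 469 to 557 CPM in the endometrium libraries and 221 to 297 CPM in the oviduct libraries. Of 13 tested leukocyte markers, 7 were called higher in endometrium and 0 higher in oviduct. CD79B, of the B cell receptor, was at 7.76, 3.45 and 4.69 CPM in endometrium and 0.458, 0.193 and 0.102 CPM in oviduct (log2 fold change 4.37 ± 0.55, adjusted p = 7.29e-04), and PTPRC, the pan-leukocyte CD45, at 31.6, 12.6 and 34.1 CPM in endometrium and 9.85, 9.17 and 8.19 CPM in oviduct (log2 fold change 1.52 ± 0.35, adjusted p = 0.0108). The T cell markers CD3D (0.64, adjusted p = 0.270) and CD8A (0.39, adjusted p = 0.448) were low in both and not called. Leukocyte calls numbered 3 without oviduct replicate 2 or endometrium replicate 3, and 4 without endometrium replicate 1 or oviduct replicate 3.

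Of 15 zinc transporters, a family taken after the values were seen, 6 were called higher in endometrium and 1 higher in oviduct. The shares of all genes were 18.4% and 21.3%. SLC39A2, a zinc importer, was at 464, 589 and 468 CPM in endometrium and 11.3, 8.31 and 9.63 CPM in oviduct (log2 fold change 5.70 ± 0.19, adjusted p = 9.07e-06). SLC30A2, which loads zinc into vesicles, was at 95.1, 345 and 178 CPM in endometrium and 6.99, 5.50 and 7.37 CPM in oviduct (log2 fold change 4.96 ± 0.50, adjusted p = 3.64e-04). SLC30A3, a vesicular relative, was the exception at 70.2, 50.7 and 55.7 CPM in oviduct and 9.54, 2.64 and 5.57 CPM in endometrium (log2 fold change -3.31 ± 0.40, adjusted p = 5.72e-04). Of the remaining members, those called differed by 0.54 to 0.81. Of 8 tested genes of ion and water transport, 3 were called higher in endometrium, 2 higher in oviduct and 3 were not called (median 0.36). Over all genes, 18.4% were called higher in endometrium and 21.3% higher in oviduct, so the oviduct count is near its background. AQP5, a water channel of secretory glands, was at 76.9, 38.5 and 83.4 CPM in oviduct and 2.06, 3.91 and 1.95 CPM in endometrium (log2 fold change -4.64 ± 0.39, adjusted p = 1.44e-04). SCNN1B (2.12 ± 0.62) and SCNN1G (1.72 ± 0.44), subunits of the epithelial sodium channel, were higher in endometrium, though called neither without endometrium replicate 3 nor without oviduct replicate 1 or 2, but its alpha subunit SCNN1A was not called (0.01, adjusted p = 0.981). CFTR, the chloride and bicarbonate channel, was at 91.8, 46.2 and 48.4 CPM in endometrium and 37.2, 37.4 and 39.8 CPM in oviduct and not called (0.70, adjusted p = 0.0641). The endometrium-higher calls of this list fell to 1 without endometrium replicate 3 and without oviduct replicate 1 or 2.

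The receptors of oestrogen and progesterone were higher in oviduct by less than 2-fold. Of 9 tested genes of the list, 4 were called higher in oviduct, 2 higher in endometrium and 3 were not called (median -0.04). Over all genes, 21.3% were called higher in oviduct and 18.4% higher in endometrium, so the endometrium count is near its background. ESR1, the oestrogen receptor, was at 1122, 887 and 1089.8 CPM in oviduct and 587, 569 and 681 CPM in endometrium (log2 fold change -0.76 ± 0.16, adjusted p = 0.00709). PGR, the progesterone receptor, was at 95.5, 119.7 and 113 CPM in oviduct and 66.1, 68.3 and 80.2 CPM in endometrium (log2 fold change -0.61 ± 0.13, adjusted p = 0.00828). Scaled by library size alone, PGR and NR2F2 were no longer called (edgeR adjusted p = 0.152 and 0.0807). IHH, the hedgehog ligand through which uterine epithelium signals to stroma, was higher in endometrium at 42.2, 55.6 and 95.1 CPM in endometrium and 18.6, 16.4 and 19.8 CPM in oviduct (log2 fold change 1.82 ± 0.29, adjusted p = 0.00201). ESR2 had at most 4 counts in a library. In the prostaglandin pathway 3 of 10 tested members were called in each direction, beside 18.4% and 21.3% of all genes. PTGER2, a receptor of prostaglandin E2, was at 23.7, 69.6 and 45.4 CPM in endometrium and 4.92, 2.51 and 3.79 CPM in oviduct (log2 fold change 3.63 ± 0.44, adjusted p = 5.78e-04), and PTGS2, the inducible enzyme of prostaglandin synthesis, at 39.7, 24.9 and 40.0 CPM in endometrium and 1.72, 6.86 and 7.89 CPM in oviduct (log2 fold change 2.65 ± 0.47, adjusted p = 0.00347). PTGES, which makes prostaglandin E2, was also higher in endometrium (1.29 ± 0.37). The receptors PTGER3 (-3.18 ± 0.60) and PTGER4 (-1.12 ± 0.24) were higher in oviduct, so receptors of the same ligand differed in direction.

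Genes of cholesterol synthesis were higher in oviduct at day 0. Of 18 tested, a family taken after the values were seen, 14 were called higher in oviduct, 1 higher in endometrium and 3 were not called (median -0.98). HMGCS1, which feeds the pathway, was at 302, 593 and 383 CPM in oviduct and 66.3, 108 and 89.0 CPM in endometrium (log2 fold change -2.28 ± 0.28, adjusted p = 6.86e-04). Oviduct library 2 was the highest, and 12 of the 14 calls were also made without it. HSD17B7 was the exception (1.67 ± 0.24). With library size alone the oviduct-higher calls were 9, and in the fit of all 66 libraries 1. Of 17 tested genes that the study itself measured by qPCR, a list chosen by the study with these samples and so no independent evidence, 9 were called higher in oviduct and 7 higher in endometrium. CYP7A1, a cytochrome that oxidises cholesterol, was at 8.04, 5.36 and 7.08 CPM in endometrium and 0.115, 0.290 and 0.102 CPM in oviduct (log2 fold change 5.21 ± 0.43, adjusted p = 1.30e-04). CYP17A1, a steroid-making enzyme of the ovarian follicle, was at 1.95, 2.51 and 7.78 CPM in oviduct and 0.187, 0.0909 and 0.177 CPM in endometrium (log2 fold change -4.65 ± 0.75, adjusted p = 0.00216). Another follicle gene, INHA, did not pass the filter on low counts, with 3, 17 and 479 counts in oviduct and at most 1 in endometrium, so oviduct library 3, also the highest for CYP17A1, held nearly all of it. Cell division genes showed the reach of a single library. Of 16 tested, a family taken after the values were seen, 5 were called higher in endometrium, beside 18.4% of all genes. All 5 were replication helicase subunits or AURKB. TOP2A, the topoisomerase of dividing cells, was at 106, 51.3 and 72.7 CPM in endometrium and 16.6, 126 and 21.7 CPM in oviduct and not called (0.48, adjusted p = 0.649). Oviduct library 2 was above every endometrium library and the other oviduct libraries were below them all. Without oviduct replicate 2, 13 of the 16 were called higher in endometrium. Claudins, which seal epithelia, had 3 of 8 tested members called higher in endometrium and 1, CLDN11 (-1.79 ± 0.40), higher in oviduct. Of 12 keratins, 5 were called higher in oviduct, with KRT15 at -7.90 ± 0.83, and 1 in endometrium, KRT32 (2.28 ± 0.45). For claudins and keratins alike, the shares of all genes were 18.4% higher in endometrium and 21.3% higher in oviduct. Of the 13 mitochondrially encoded genes 0 were called by edgeR, and 0 had an unadjusted p under 0.05. These families too were taken after the values were seen.

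**Figure D4:**
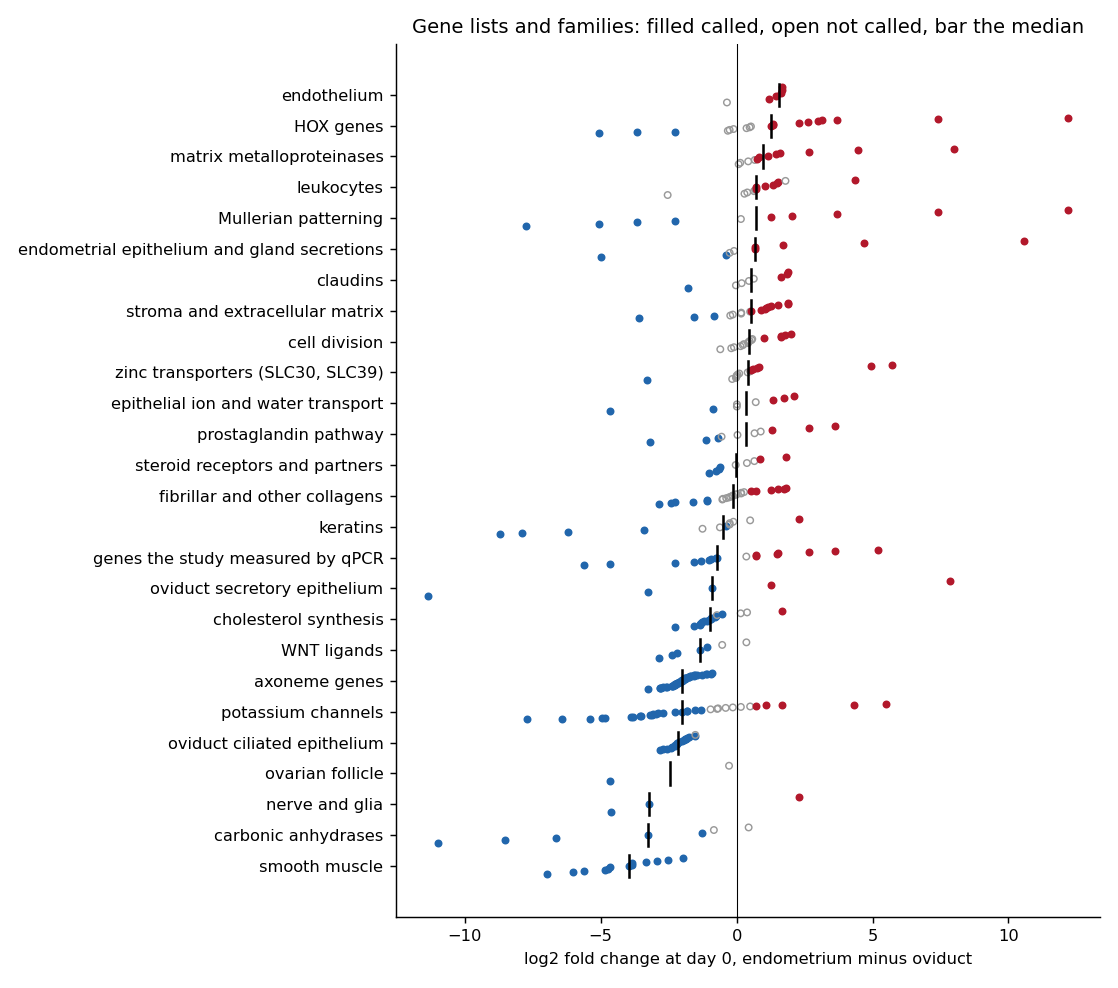
Log2 fold change at day 0, endometrium minus oviduct, of every tested member of 14 gene lists and 12 gene families; each point is a gene, filled red or blue where called higher in endometrium or oviduct and open where not called, and the black bar is the median. Smooth muscle has the lowest median (-3.96) and endothelium the highest (1.55).

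Some genes were found in one tissue only. With at least 10 counts in each library of one tissue and at most 3 in each of the other, 37 genes were found only in endometrium and 109 only in oviduct, of which 26 and 56 carry a symbol. Both counts depend on the limits: at least 30 counts left 19 and 39, and 0 counts in the other tissue left 7 and 17. Besides genes named above, the endometrium set held IL31RA, a cytokine receptor, with 30, 169 and 45 counts against 0, 1 and 0, and COCH, a matrix protein, with 49, 27 and 17 against 3, 0 and 2. The oviduct set held the homeobox gene GSX2, with 52, 58 and 51 against 0, 0 and 1. It also held ZP4, a protein of the egg coat, with 20, 39 and 16 counts in oviduct and 0 in endometrium, and DPPA5, known from early germ and stem cells, with 12, 14 and 50 counts against 2, 0 and 0. These examples were picked after their values were seen. Most of these genes were low. The 145 genes at a log2 fold change of 3 or more toward endometrium held 1.13% ± 0.457 (SD, n = 3) of the endometrium counts and 0.0432% of the oviduct counts. The 390 toward oviduct held 18.3% ± 5.57 of the oviduct counts and 0.437% of the endometrium counts, and 6.24% with OVGP1 left out. Counts are not per unit of gene length, so these are shares of reads.

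Ovary libraries of the same day were set beside these genes as a description. Of the 145 genes at 3 or more toward endometrium, 114 (78.6%) had an ovary level nearer to oviduct, and of the 390 toward oviduct, 282 (72.3%) had one nearer to endometrium. These genes were chosen for being high in 1 tissue, so nothing is read from these shares. The ovary was above both in 10 and 32 of them. OVGP1 was at 560.1, 2181 and 784 CPM in the ovary libraries, between the tissues, and HOXA11 and HOXA10 reached at most 0.191 and 0 CPM there. MSX1 was at 1.62, 1.96 and 2.52 CPM in ovary.

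Other gilts gave the same comparison on 6 further days, from libraries that the day 0 contrast did not use. All days were fitted in one model with a group for each tissue and day, in which 34.6%, 35.3%, 41.2%, 44.5%, 46.3% and 40.2% of 16292 genes were called on days 3, 6, 9, 12, 15 and 18, in that order. Of the 5801 genes called at day 0, 94.6%, 80.5%, 78.5%, 80.2%, 84.7% and 91.9% had the same sign on those days, and 3699, 2786, 2984, 3211, 3584 and 3701 were called again in the same direction. Calls in the opposite direction numbered 17, 237, 322, 323, 215 and 26, most of them on days 6 to 15. The 1517 genes called in the same direction on all 6 further days were 407 (15.2%) of the 2684 higher in endometrium at day 0 and 1110 (35.6%) of the 3117 higher in oviduct. Among genes at a log2 fold change of at least 3 at day 0, the shares were alike. They were 75 of 145 (51.7%) toward endometrium and 203 of 390 (52.1%) toward oviduct. Tested directly, the difference between tissues on another day differed from that at day 0 in 20 (0.123%), 1477 (9.07%), 2516 (15.4%), 2554 (15.7%), 1644 (10.1%) and 101 (0.62%) genes on days 3, 6, 9, 12, 15 and 18. These 6 tests share the day 0 libraries.

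HOXA10 and the medians of cilia and smooth muscle genes were on the same side on the further days, each group having 2 to 4 libraries. Some protease, lipid and immune genes were not. HOXA10 averaged 7.65, 5.41 and 5.89 CPM in endometrium on days 3, 9 and 18 and at most 0.388 CPM in oviduct on any day. Ciliated-cell markers had 17 or 18 of 18 members called higher in oviduct on each of the 6 further days, and the median ran from -2.18 on day 3 to -3.28 on day 9. Smooth muscle markers had 9 to 13 of 13 called higher in oviduct, with the smallest median difference, -2.59, on day 12. Of that list, ACTC1 did not keep its difference: from -5.63 at day 0 it moved toward endometrium by 6.73 on day 9 (interaction test, adjusted p = 0.00317). On day 9, 0 members of the list were called higher in endometrium, so a change of side was not shown for ACTC1. Its day 0 level was far higher in oviduct library 2 than in the other oviduct libraries. ACTG2 averaged 7528 CPM in oviduct on day 0 and 287 CPM on day 9, beside 59.3 and 7.09 CPM in endometrium. OVGP1 averaged 144712 CPM in oviduct on day 0 and 4669.5 CPM on day 9, and in endometrium 54.3 and 2.79 CPM. MMP7 changed sides: it averaged 299 CPM in endometrium and 1.13 CPM in oviduct on day 0, but 0.678 and 24.7 CPM on day 9, where its log2 fold change was -5.17 (adjusted p = 0.00602). Cholesterol synthesis changed sides as well. In this model 9 of 19 members were called higher in oviduct at day 0, against 17 of 19 called higher in endometrium and 1 higher in oviduct on day 12, and 18 of 19 differing there from day 0. HMGCS1 averaged 281 CPM in endometrium and 85.1 CPM in oviduct on day 12 (log2 fold change 1.72, adjusted p = 0.00464). IGF1 went from higher in oviduct to higher in endometrium, with 5.09 on day 12 (adjusted p = 3.48e-06). TLR4, the receptor of bacterial lipopolysaccharide, went from higher in endometrium at day 0 (0.72 ± 0.22) to higher in oviduct on day 9 (-3.42, adjusted p = 2.75e-08). AQP5 was above endometrium in oviduct at day 0 and near it on day 9, at 0.924 and 0.815 CPM. CA12 averaged 25.3 CPM in oviduct at day 0 and 0.706 CPM on day 9, and 1 endometrium library of day 6 held 24.3 CPM. On day 6 CA12 was not called in either direction (log2 fold change 2.06, adjusted p = 0.116).

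**Figure D5:**
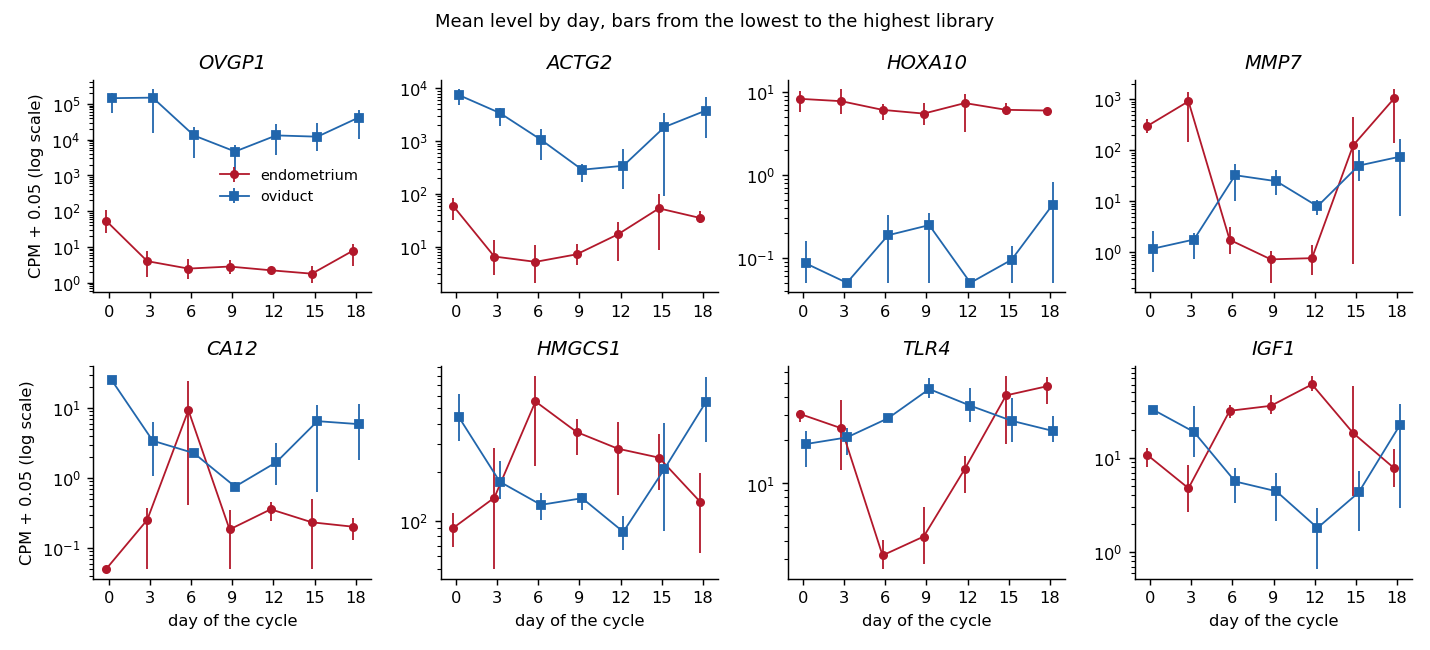
Mean level of 8 genes by day of the cycle in endometrium (red circles) and oviduct (blue squares) as CPM + 0.05 on a log scale, with bars from the lowest to the highest library of the group. OVGP1 and ACTG2 stay higher in oviduct and HOXA10 in endometrium on every day shown, whereas the lines of MMP7, CA12, HMGCS1, TLR4 and IGF1 cross. CA12 leaned to endometrium on day 6 but was not called there (log2 fold change 2.06).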

How the data were processed

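Total RNA of endometrium, ovary and oviduct was sequenced from poly-A libraries. Per the study's methods and labels, the first 13 bases of the reads were trimmed and reads were aligned with TopHat2 to the pig genome with Ensembl annotation; featureCounts is among the tools the labels name. The deposited values are raw counts per gene made by the authors, without normalisation, and carry no fold changes. The counter's strand setting is not given in the sources used here, so reads of overlapping or antisense genes, and of near-identical paralogs, may be misassigned. Libraries held 9555136 to 11573086 counts at day 0; 3 counts was taken as the floor of a library. Columns were assigned to groups by name, and 1 endometrium sample, of day 12, was not used here.

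Counts were fitted in edgeR 4.0.16 (R 4.3.3) with TMM, filterByExpr and robust quasi-likelihood, called at a Benjamini-Hochberg adjusted p under 0.05; differences beyond 2-fold were tested with glmTreat. Standard errors are the log2 fold change over the square root of F. DESeq2 1.42.0 was an alternative. The procedure was tested on simulated data. Symbols were paired with 11804 of 25322 gene identifiers (9680 of 14606 tested; 4085 of 5801 called), so 1716 called genes carry none. Named genes are the 12 with the largest difference in each direction among called genes with a symbol, no overlap and at least 10 counts per library of the higher tissue, and the largest 2 to 4 called members of each list; further genes, and all gene families, were chosen after their values were seen. Members and lists were chosen with earlier results of these data known. The study tested with Cuffdiff on FPKM. The study's methods describe the tissues as collected from 3 gilts per day, but the labels do not say which libraries share a gilt. The main test did not pair them, and its p-values measure the spread between these libraries. Some genes are not reported here.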

Additional observations from a re-analysis of the deposited data

Results flagged for a closer look

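The difference between endometrium and oviduct was itself tested against that of day 0 on each of the 6 further days, by edgeR's quasi-likelihood test of the interaction with adjustment within each day. In order of day, from day 3 to day 18, it differed in 20, 1477, 2516, 2554, 1644 and 101 genes, all 6 tests sharing the day 0 libraries. Of 120 genes named above and tested on all days, 44 differed on at least 1 of them. The share of all genes that differed on at least 1 day was not counted. The highest share on a single day was 15.7% of 16292 genes, on day 12. Many named genes were chosen for their day 0 difference, so nothing is read from the count of 44. Below, each of the 44 genes is given on its day with the smallest adjusted p. Its value is the tissue difference on that day minus that at day 0, on the log2 scale. A positive value is a move toward endometrium. On day 3, the difference had moved toward oviduct in SLC30A2 by -4.19 (adjusted p = 0.0106). On day 6, the difference had moved toward endometrium in CA12 by 13.09, PGR by 2.47 and ESR1 by 1.68 (adjusted p from 2.16e-04 to 0.0231). On day 9, the difference had moved toward endometrium in ACTC1 by 6.73, KRT15 by 5.54, CA8 by 5.03, POSTN by 2.85, UCHL1 by 2.48, SCNN1A by 2.37, PAX2 by 2.35 and HOXA7 by 2.05 (adjusted p from 0.00317 to 0.0414). On day 9, the difference had moved toward oviduct in MMP7 by -13.15, TLR4 by -4.12, CLDN11 by -2.24, FOXJ1 by -1.50, EPCAM by -1.36 and TEKT1 by -1.29 (adjusted p from 8.78e-06 to 0.038). On day 12, the difference had moved toward endometrium in AQP5 by 7.47, IGF1 by 6.69, NCAM1 by 5.21, SCNN1B by 4.33, PTGS2 by 4.24, HMGCS1 by 4.02, COL4A5 by 3.37, KCNMA1 by 3.28, COL3A1 by 3.17, COL1A2 by 2.81, COL4A6 by 2.45, HSD17B7 by 2.24, KRT18 by 2.18, MMP2 by 1.95 and PDGFRA by 1.73 (adjusted p from 9.97e-05 to 0.0302). On day 12, the difference had moved toward oviduct in MMP13 by -6.11, WNT7B by -3.43, PTPRC by -1.86 and WT1 by -1.43 (adjusted p from 0.00991 to 0.0212). On day 15, the difference had moved toward endometrium in SLC30A3 by 4.14, PTGER2 by 3.30, SLC39A2 by 2.58 and HOXB5 by 2.53 (adjusted p from 1.89e-04 to 0.0249). On day 15, the difference had moved toward oviduct in CCNO by -6.47 and SLC34A2 by -5.44 (adjusted p from 0.00129 to 0.0464). On day 18, the difference had moved toward oviduct in HOXA11 by -8.84 (adjusted p = 0.0372). On day 3 no gene had moved toward oviduct without endometrium replicate 2 or oviduct replicate 2, so the call of SLC30A2 was lost there. On day 18 none had under the replicate block, with ovary libraries added, or without endometrium replicate 1 or 3 or oviduct replicate 1 or 3, so the call of HOXA11 was lost in each of these. HOXA11 was between 0 and 11.4 CPM in the oviduct libraries of day 18, with a mean of 4.05 CPM, and CA12 reached 24.3 CPM in 1 endometrium library of day 6 and 0.367 CPM in the lowest.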

How the results depend on the processing

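At day 0 the 5801 calls became 5724 with DESeq2's size factors, 5861 with no filter on low counts, 5977 with DESeq2's Wald test, and 4527 to 5208 with 1 library left out. Fitting all libraries of the 3 tissues together gave 3766 calls, 1522 higher in endometrium, and 1021 past a 2-fold difference. Scaling by library size alone, chosen after seeing the data, gave 5107 higher in endometrium. No called gene named above changed direction under any alternative. Of 107 called genes named above, 19 were no longer called with all libraries fitted, 3 with library size alone, and 2 to 6 with 1 library left out (MEP1B, PTGES, SCNN1B, SCNN1G, SLC34A2, KRT18, TLR4 and ACTC1); the cause was not tested.

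In the fit of all libraries, list members called higher in endometrium numbered 2 for endometrial epithelium, 4 for stroma, 1 for leukocytes, 0 for steroid receptors, 0 for ion and water transport and 4 for the qPCR genes, and those higher in oviduct 1, 1, 0, 0, 2 and 2. With library size alone, calls higher in endometrium were 4 for steroid receptors and 5 for prostaglandins, and calls higher in oviduct were 2 for steroid receptors, 5 for the qPCR genes and 1 for endometrial epithelium, also 1 with OVGP1 left out of the library size. DESeq2 called 1 leukocyte gene higher in oviduct.

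Leaving out 1 library gave 47 to 56 genes only in endometrium, the latter without endometrium replicate 2 or oviduct replicate 2. It gave 1 to 2 oviduct-higher calls in endometrial epithelium, 0 to 1 in endothelium, 0 to 1 in leukocytes and 1 to 2 in ovarian follicle. Endometrium-higher calls were 3 to 6 in leukocytes, 1 to 3 in steroid receptors, 1 to 4 in ion and water transport and 4 to 6 in the qPCR genes. Tissue differences that changed from day 0 numbered 0 to 21 on day 3, 897 to 1667 on day 15 and 0 to 220 on day 18, lowest without endometrium replicate 2, endometrium replicate 3, and endometrium replicate 3 or oviduct replicate 1 or 3. With ovary libraries added they were 5, 742, 1373, 1497, 743 and 6 on days 3 to 18, and on day 18 they were 52 with no filter. Genes only in endometrium numbered 19 at 30 counts and 7 at 0 counts in the other tissue, and genes only in oviduct 39 and 17. Endometrium-biased genes at a log2 fold change of at least 2 held 2.50% of counts, and the oviduct-biased genes without OVGP1 6.24%.

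Libraries of the 2 tissues share numbers 1 to 3 in the table. The study's methods describe collecting the tissues from 3 gilts per day, so both tissues of day 0 may come from the same gilts. The labels do not say which libraries share a gilt, and the main test treated the libraries as independent. Deviations of same-numbered libraries correlated at 0.065, 0.126 and 0.219, and each library correlated best with its own number. The numbers were still not taken as pairs in the main test. The replicate block gave 5643 calls, 1824 past a 2-fold difference, 1 oviduct-higher call in endometrial epithelium, and 2 changes on day 18, neither of them toward oviduct, so that HOXA11 was not among them. On simulated counts at this size, 67.3% of 2-fold differences and 0 of 49 differences of 1.5-fold were called. In them only 50 of 14606 genes were changed at each fold, whereas 39.7% of genes were called in the data. The adjusted p is stricter where fewer genes differ, so these shares do not hold for the real comparison. It called some differences below 2-fold, and small differences that were not called are not shown to be absent.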
